A study of Mus musculus with 31 samples.

Results

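Cancer cells sorted from pleural tumours were compared with cancer cells sorted from subcutaneous tumours of the same line, gene by gene. The comparison uses 10 of the 31 libraries of the study, 5 from pleural tumours and 5 from subcutaneous tumours, and 12357 genes that reached 1 TPM (transcript share scaled to a fixed library total) in at least 5 sorted libraries. All tumours were grown from AB1-mCherry, a murine mesothelioma line that carries the red fluorescent protein mCherry, from which the brightest 5% of cells had been sorted and expanded. Hosts were untreated female BALB/c mice of 12 weeks, and tumours were collected 10 days after inoculation into the pleural space, under the skin or into the peritoneal space. Cells were sorted as CD45-negative and mCherry-positive, so the gate was meant to exclude leukocytes, and any other host cell only by its lack of mCherry. The model is 1 line, so the spread between libraries is between mice (1 sorted library per mouse), not between tumours of different origin. The 5 peritoneal sorted libraries entered the same fit, and 11 whole tumours (6 pleural, 5 subcutaneous) are given beside the sorted cells.

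Mesothelioma arises from the mesothelium, the thin cell layer that lines the pleural and peritoneal cavities, and a subcutaneous graft of it grows in connective tissue instead. Tumours surround themselves with matrix in which collagens are crosslinked by lysyl oxidases, decorated by matricellular proteins such as periostin and tenascin C, and remodelled by metalloproteinases and their inhibitors. When oxygen is short, hypoxia-inducible factors bind the core letters ACGTG or GCGTG in DNA and raise genes such as Car9 and those of glycolysis.

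The sorted libraries differed in RNA of other cell types before any comparison was made. Ptprc, which encodes CD45, read 12.9, 7.48, 0.340, 1.58 and 0.228 TPM in subcutaneous libraries 1 to 5 and 0.291, 0.592, 0.440, 1.45 and 2.05 TPM in pleural libraries 1 to 5. Subcutaneous libraries 1 and 2 were thus far above the rest, and values without them are given beside the named genes and lists whose call changed. The 12 pan-leukocyte markers summed to 645, 493, 42.4, 126 and 32.3 TPM in the subcutaneous libraries and to 21.8 to 80.5 TPM in the pleural ones, a difference in means of -220.4 TPM (exact permutation test, two-sided, p = 0.0952, n = 5 and 5, where the smallest p possible is 0.00794). The macrophage marker list summed to 43.1 to 1684 TPM in subcutaneous and 45.3 to 187 TPM in pleural libraries, again highest in subcutaneous 1 and 2. Of 12 endothelial markers 6 were listed, and they summed to 23 to 35.9 TPM in subcutaneous and 6.0 to 25.8 TPM in pleural libraries, with overlap through pleural library 5 only. Pleural library 5 also held Sftpc at 31.9 TPM and Scgb1a1 at 38.9 TPM, both markers of lung epithelium, which were at most 0.299 TPM in the other 9 libraries. Of 21 mesothelial markers used to check the cell label, only 9 were listed in sorted cells. Among these, Msln (159 to 316 TPM pleural, 149.9 to 189 TPM subcutaneous), Efemp1, Cdh2 and Gata4 were well detected in all 10 libraries. Krt18 stayed under 2 TPM, and Krt8 was called lower in pleural cells, as described below. Wt1, Upk3b, Calb2 and Muc16 were among the markers not analysed here in sorted cells. Transcripts of the mitochondrial genome took 5.72 ± 0.449% (SD, n = 5) of TPM in pleural and 5.95 ± 0.397% in subcutaneous libraries (exact permutation test, two-sided, p = 0.389).

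**Figure D1:**
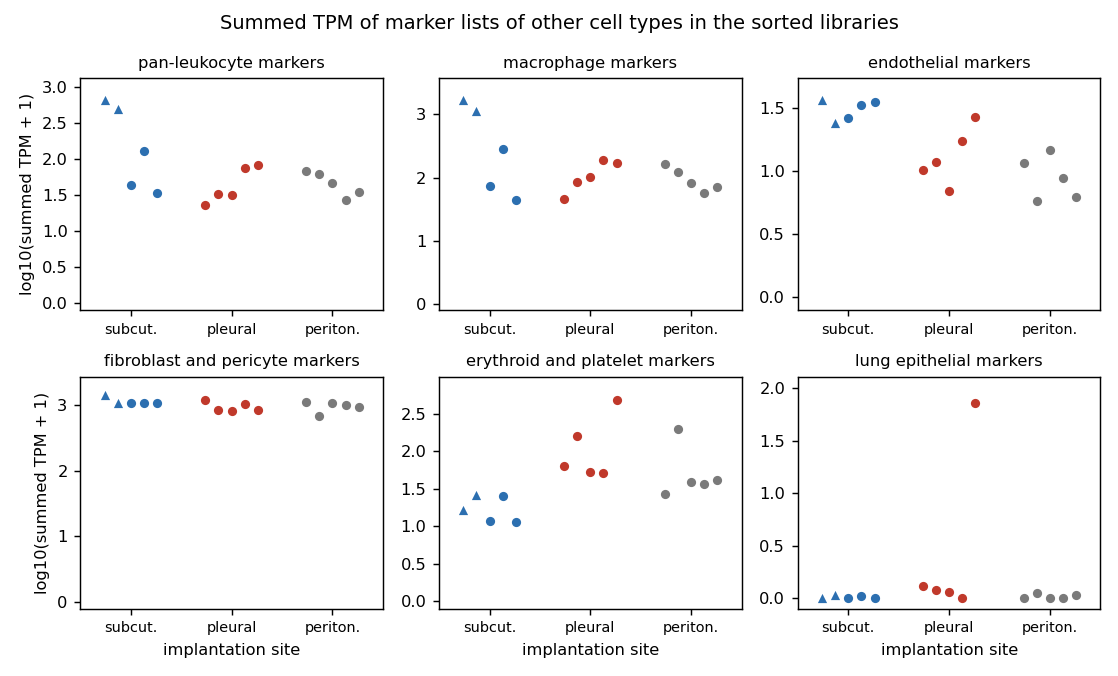
Summed TPM of 6 marker lists, as log10(summed TPM + 1), in each sorted library by implantation site; triangles are subcutaneous libraries 1 and 2. Those libraries stand apart for leukocyte and macrophage markers, and the lung epithelial sum is high in pleural library 5 only. The fibroblast and pericyte sum is lower in pleural than in all subcutaneous libraries, except in pleural library 1. Cd34, Ly6a, Dcn and Lum make up most of it at every site.

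Pleural sorted cells had 203 genes at an adjusted p below 0.05 against subcutaneous ones (1.64% of genes tested), of which 154 were lower (1.25%) and 49 higher (0.397%). At an unadjusted p below 0.05 there were 1365. Of the 203 genes, 118 differed by at least 2-fold on the log2(TPM + 1) scale, 98 lower and 20 higher, while the median over all 12357 genes was -0.02. The scale understates the change of genes at low TPM. Pleural and subcutaneous values did not overlap for 181 of the 203, beside 384 of all genes tested (3.11%). The lower genes were mostly low or absent in pleural cells, with a median over genes of 1.65 TPM there against 9.0 TPM in subcutaneous cells, and 53 of the 154 averaged under 1 TPM in pleural cells. The higher genes had medians of 36.3 TPM in pleural and 10.8 TPM in subcutaneous cells. In bulk RNA, fewer cells of a type and less RNA per cell cannot be told apart.

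Without subcutaneous libraries 1 and 2 the count was 106 genes (0.858%), 95 lower (0.769%) and 11 higher (0.0890%), and 88 of the lower and 10 of the higher were among the first 203. The higher count was the less stable of the pair. It was 26 without subcutaneous library 1, 29 without subcutaneous library 2, 32 without subcutaneous library 5, 30 without pleural library 3, 31 without pleural library 5 and 87 without pleural library 1. Quantile normalization gave 106 higher and 161 lower, so that 39.7% of its calls were higher, against 24.1% here.

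**Figure D2:**
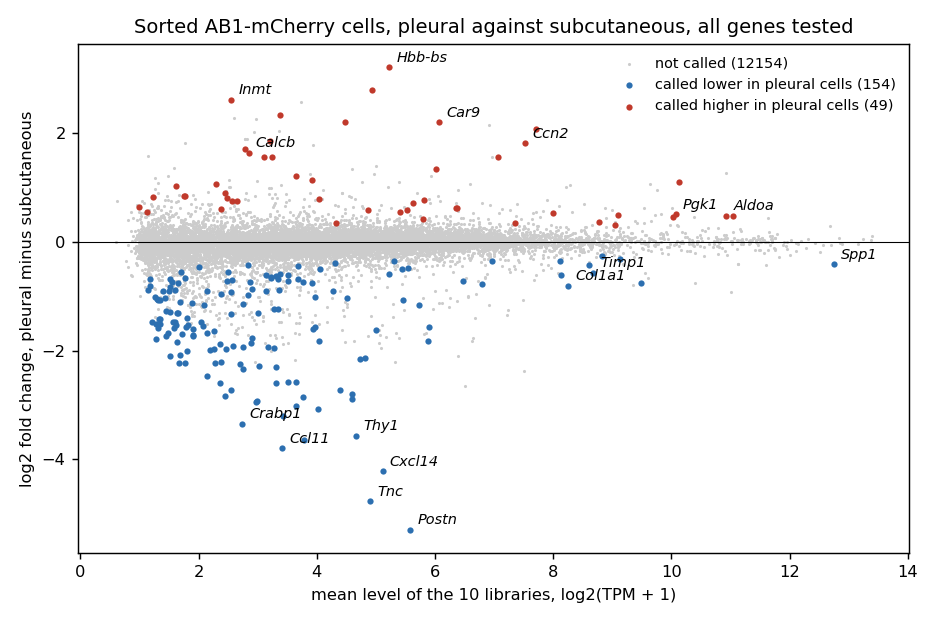
Each point is 1 of the 12357 genes tested, with its mean level over the 10 libraries on the x axis, as log2(TPM + 1), and its pleural minus subcutaneous log2 fold change on the y axis. The 154 lower genes (blue) reach -5.29 for Postn, and the 49 higher genes (red) reach 3.21 for Hbb-bs.

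The pair of genes with the largest decreases in pleural cells encode matrix proteins, and in the matrix protein and collagen lists every gene that was called fell. These lists and those below were written with earlier results of these data known, so their counts are descriptive only. Over all genes tested, 1.25% were called lower and 0.397% higher. Of 25 matrix proteins tested, collagens apart, 10 fell and 0 rose, with a median log2 fold change of -0.42 over the 25 (6 fell without subcutaneous libraries 1 and 2). Postn encodes periostin, a matricellular protein that binds integrins and collagen. It read 0.716, 0.941, 0.422, 2.62 and 2.45 TPM in pleural libraries 1 to 5 and 157, 63.6, 77.9, 85.5 and 77.1 TPM in subcutaneous libraries 1 to 5 (log2 fold change -5.29, SE 0.34, adjusted p = 4.51e-07, limma). Every subcutaneous library was above 60 TPM and every pleural one below 3 TPM. Tnc, the gene of tenascin C, read 0.576, 1.03, 0.538, 1.81 and 1.47 TPM in pleural and 94.5, 41.0, 51.5, 56.5 and 41.2 TPM in subcutaneous cells (log2 fold change -4.77, SE 0.29, adjusted p = 2.93e-07). The groups were as far apart as for Postn, and in both genes subcutaneous library 1 was the highest. Without subcutaneous libraries 1 and 2 the log2 fold changes were -5.16 and -4.63. Thbs4, a thrombospondin, was at 0.0132 to 1.02 TPM in pleural and 4.60 to 16.4 TPM in subcutaneous cells (log2 fold change -2.73, SE 0.31, adjusted p = 6.79e-05). Mfap5, a protein of elastic microfibrils, fell from a higher level, 88.3 ± 21.2 TPM (SD, n = 5) in subcutaneous to 28.7 ± 3.94 TPM in pleural cells (log2 fold change -1.57, SE 0.14, adjusted p = 6.54e-06).

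The most abundant of these genes fell by less. Spp1, which encodes osteopontin, read 5404, 6162, 6607, 4890.3 and 6674 TPM in pleural and 8226, 7699.5, 7748, 7676 and 7954 TPM in subcutaneous cells (log2 fold change -0.41, SE 0.089, adjusted p = 0.0240). Its groups did not overlap, and the call was lost without subcutaneous libraries 1 and 2 (adjusted p = 0.173). The collagen-binding Sparc (log2 fold change -0.32) and the proteoglycan gene Bgn (-0.76) were lower in pleural cells too, and both calls were lost in that smaller set (adjusted p = 0.142 and 0.113). Fn1, the fibronectin gene, was at 1017 to 1259.9 TPM in pleural and 951 to 1440.1 TPM in subcutaneous cells and was not called (log2 fold change -0.018, adjusted p = 0.988).

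Of 18 collagen genes tested, 5 fell, 0 rose and the median was -0.21 (-0.13 without subcutaneous libraries 1 and 2). Col1a1, Col12a1 and Col15a1 fell without subcutaneous libraries 1 and 2, and the count was also 3 without subcutaneous library 1 alone. The basement membrane collagen gene Col15a1 read 5.47, 6.30, 2.15, 7.59 and 4.12 TPM in pleural and 70.6, 27.7, 34.2, 34.3 and 39.4 TPM in subcutaneous cells (log2 fold change -2.79, SE 0.42, adjusted p = 0.00138). Its highest pleural library was well under the lowest subcutaneous one. Col12a1, of a fibril-associated collagen, was at 20.6 to 33.7 TPM in pleural and 42.4 to 84.4 TPM in subcutaneous cells (log2 fold change -1.07, SE 0.18, adjusted p = 0.00297). Among the abundant fibrillar collagens, Col1a1 fell from 389 ± 96.8 to 217 ± 20.1 TPM (adjusted p = 0.00714). Its partner Col1a2 had overlapping groups and was not called (log2 fold change -0.28, adjusted p = 0.622). The basement membrane pair Col4a1 and Col4a2 had log2 fold changes of 0.0048 and -0.016.

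The lysyl oxidases Lox and Loxl2, which crosslink collagen, fell along with P4ha3, a prolyl hydroxylase subunit, among 17 genes tested for crosslinking and processing (3 fell, 0 rose, median -0.10). Without subcutaneous libraries 1 and 2 the count was 2 and the median -0.0095, as P4ha3 lost its call (adjusted p = 0.144). Lox read 1.47, 2.04, 0.995, 3.44 and 4.04 TPM in pleural and 25.4, 11.2, 14.2, 15.8 and 10.6 TPM in subcutaneous cells (log2 fold change -2.30, SE 0.30, adjusted p = 0.000293). Loxl2 read 0.390, 0.546, 0.439, 1.10 and 0.832 TPM in pleural and 10.6, 4.61, 6.40, 8.25 and 5.06 TPM in subcutaneous cells (log2 fold change -2.23, SE 0.23, adjusted p = 2.83e-05). The groups did not overlap for either gene, and both stayed called without subcutaneous libraries 1 and 2 (adjusted p = 0.00304 and 0.000183).

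Of 23 proteases that cut matrix and inhibitors that block them, 7 fell, 0 rose and 16 were not called (median -0.32). Leaving out subcutaneous libraries 1 and 2, 5 fell and the median was -0.18. The gelatinase gene Mmp2 read 1.60, 1.80, 1.69, 3.65 and 3.31 TPM in pleural and 48.4, 22.4, 25.1, 23.2 and 21.2 TPM in subcutaneous cells (log2 fold change -3.07, SE 0.29, adjusted p = 1.22e-05). Stromelysin, encoded by Mmp3, was at 0.259, 0.574, 0.693, 0.514 and 0.968 TPM in pleural and 32.2, 10.5, 8.81, 7.35 and 7.35 TPM in subcutaneous cells (log2 fold change -2.93, SE 0.30, adjusted p = 2.83e-05). Subcutaneous library 1 was the highest for both, and the other 4 subcutaneous libraries still lay above all pleural ones. The inhibitor gene Timp3 read 1.40, 0.895, 1.01, 1.83 and 3.21 TPM in pleural and 40.3, 14.4, 15.3, 21.6 and 15.7 TPM in subcutaneous cells (log2 fold change -3.03, SE 0.30, adjusted p = 2.11e-05). Timp1, a secreted inhibitor and the most abundant member that fell, went from 489 ± 42.8 to 329.9 ± 29.1 TPM (log2 fold change -0.57, SE 0.086, adjusted p = 0.00138).

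Of 23 chemokines tested, the secreted signals that attract leukocytes, 6 fell, 0 rose and 17 were not called (median -0.83). In the set without subcutaneous libraries 1 and 2, 5 fell and the median was -0.11. Cxcl14 read 0.865, 1.81, 1.03, 6.61 and 3.91 TPM in pleural and 115, 46.5, 48.3, 60.1 and 51.9 TPM in subcutaneous cells (log2 fold change -4.21, SE 0.43, adjusted p = 2.30e-05). Ccl11, the eosinophil attractant eotaxin, read 0.328, 0.625, 0.0898, 0.430 and 0.263 TPM in pleural and 36.5, 12.8, 13.7, 18.4 and 13.6 TPM in subcutaneous cells (log2 fold change -3.79, SE 0.33, adjusted p = 6.54e-06). Both genes separated the groups fully. The monocyte attractants Ccl2 (log2 fold change -2.58, SE 0.39, adjusted p = 0.00122) and Ccl7 (log2 fold change -2.60, adjusted p = 0.00106) fell as well, as did Cxcl12 (log2 fold change -2.34, adjusted p = 9.98e-05). Ccl8 read 111, 65.1, 6.33, 28.7 and 6.23 TPM in subcutaneous libraries 1 to 5, with the highest values in the leukocyte-rich libraries 1 and 2, and 1.59 to 3.96 TPM in pleural ones. It was the only one of the 6 to lose its call without those libraries (log2 fold change -1.74, adjusted p = 0.153).

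**Figure D3:**
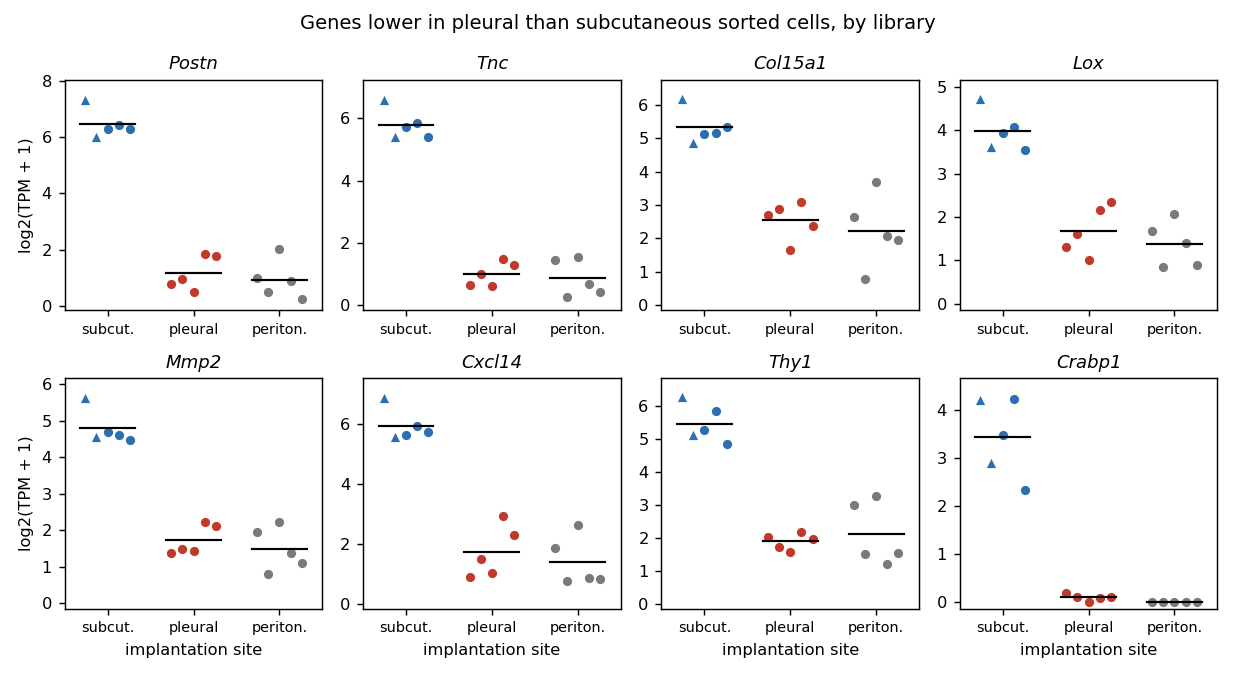
Level of 8 genes that fell in pleural cells, as log2(TPM + 1), in each sorted library by implantation site; bars are means of 5 libraries and triangles are subcutaneous libraries 1 and 2. In all 8 panels the pleural points lie below every subcutaneous point, for Postn from 0.422 to 2.62 TPM in pleural cells against 63.6 to 157 TPM in subcutaneous cells.

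Other genes with large decreases had varied roles. Thy1, the surface glycoprotein CD90 of fibroblasts and T cells, read 3.09, 2.31, 1.95, 3.46 and 2.91 TPM in pleural and 74.9, 33.7, 36.9, 55.6 and 27.8 TPM in subcutaneous cells (log2 fold change -3.57, SE 0.37, adjusted p = 2.83e-05). Crabp1, which binds retinoic acid in the cytoplasm, read 0.137, 0.0610, 0, 0.0525 and 0.0643 TPM in pleural and 17.7, 6.46, 10.2, 17.9 and 4.01 TPM in subcutaneous cells (log2 fold change -3.35, SE 0.28, adjusted p = 5.10e-06). It was close to absent in pleural cells and listed at 0 in all 5 peritoneal libraries. Cpxm1, of the carboxypeptidase family, was at 0.440 to 1.71 TPM in pleural and 16.5 to 48.1 TPM in subcutaneous cells (log2 fold change -3.64, SE 0.29, adjusted p = 2.62e-06). The cartilage matrix gene Cilp was at 0.572 to 1.41 TPM in pleural and 11.3 to 34.8 TPM in subcutaneous cells (log2 fold change -3.20, SE 0.24, adjusted p = 1.82e-06). Spon1, which encodes a spondin of the matrix, was at 0.367 to 1.24 TPM in pleural and 9.15 to 25.8 TPM in subcutaneous cells (log2 fold change -2.95, SE 0.28, adjusted p = 1.22e-05). Carriers of insulin-like growth factors fell too, 2 of 10 genes of that axis tested (0 rose, median -0.30). These were Igfbp3, at 4.55 ± 1.36 TPM in pleural and 35.5 ± 8.54 TPM in subcutaneous cells (log2 fold change -2.72), and Igfbp7 (log2 fold change -2.14, adjusted p = 0.0513 without subcutaneous libraries 1 and 2).

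Some markers of host stroma were also lower in pleural cells, among them Thy1 and Col15a1, which are described above. Of 14 fibroblast and pericyte markers 11 were tested, and 6 fell in pleural cells (Thy1, Col15a1, Pi16, Mcam, Dpt and Pdgfrb) while 0 rose, with a median of -0.97. The count was 3 without subcutaneous libraries 1 and 2. The list summed to 1064 to 1436 TPM in subcutaneous and 800.5 to 1200.3 TPM in pleural libraries, with overlap through pleural library 1 only. Its most abundant member, Cd34, was at 487 to 530.0 TPM in pleural and 491 to 510.4 TPM in subcutaneous cells and was not called, nor were Ly6a, Dcn, Lum and Pdgfra. None of the 11 was at 0 in any of the 10 libraries. Emcn, of the endothelial list, was at 0.292 to 2.16 TPM in pleural and 3.16 to 4.70 TPM in subcutaneous cells and was the only endothelial marker called of 6 (adjusted p = 0.0140, and 0.0696 without subcutaneous libraries 1 and 2), with a list median of -1.09. That count was 4 without pleural library 5. Cd53, a tetraspanin of leukocytes, read 1.53, 1.41, 1.34, 2.52 and 3.27 TPM in pleural and 38.4, 23.2, 10.2, 13.2 and 9.76 TPM in subcutaneous cells and was the only one of 11 pan-leukocyte markers tested that was called (adjusted p = 0.000129, and 0.000125 without subcutaneous libraries 1 and 2). The leukocyte count was 2 without subcutaneous library 3 or 5. Subcutaneous library 1 was the highest subcutaneous library for 105 of the 154 lower genes, and libraries 1 and 2 were the top pair for 36. The same counts were not made over all genes tested, so they do not set the lower genes apart. The part of stromal RNA in the lower matrix, protease and chemokine genes was not tested.

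Lrrc15, Krt8 and Anxa8 were chosen after their values were seen. Lrrc15, a surface marker of activated fibroblasts, was under 0.1 TPM in all 5 pleural libraries and at 2.12 to 5.39 TPM in subcutaneous ones (log2 fold change -2.10, adjusted p = 4.35e-06). Krt8, a keratin of simple epithelia and mesothelium, read 1.86, 16.7, 2.55, 11.4 and 22.1 TPM in pleural and 24.2, 58.0, 31.7, 31.9 and 53.8 TPM in subcutaneous cells (log2 fold change -2.15, SE 0.48, adjusted p = 0.0300). The groups did not overlap, and the call was lost without subcutaneous libraries 1 and 2 (adjusted p = 0.142), and also without any one of pleural library 3 and subcutaneous libraries 2 to 5. Anxa8, an annexin, was at 0.873 to 4.06 TPM in pleural and 6.74 to 14.1 TPM in subcutaneous cells (log2 fold change -1.85, SE 0.24, adjusted p = 0.000323). Both were also lower in pleural than in peritoneal cells, by -1.87 (adjusted p = 0.0259) and -1.20 (adjusted p = 0.0103) on the log2 scale.

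Fewer genes rose in pleural cells, and the clearest was Car9, the cell surface carbonic anhydrase IX. It read 72.1, 91.6, 119, 145 and 119 TPM in pleural libraries 1 to 5 and 17.9, 22.7, 17.3, 32.4 and 24.8 TPM in subcutaneous libraries 1 to 5 (log2 fold change 2.20, SE 0.24, adjusted p = 5.67e-05). The lowest pleural library was above 70 TPM and the highest subcutaneous one below 33 TPM. Without subcutaneous libraries 1 and 2 the log2 fold change was 2.10 (adjusted p = 0.00135). Of 21 hypoxia genes tested, 2 rose and 0 fell, with a median of 0.25. The other one was Bnip3l, a mitophagy receptor, at 257 to 328 TPM in pleural and 188 to 239 TPM in subcutaneous cells (log2 fold change 0.52, SE 0.11, adjusted p = 0.0234, and adjusted p = 0.159 without subcutaneous libraries 1 and 2). That count was 1 without any one of pleural libraries 3, 4 and 5 or subcutaneous libraries 1, 2, 3 and 5, and 4 without subcutaneous library 4. Vegfa, the endothelial growth factor, overlapped throughout at 82.8 to 121 TPM in pleural and 68.5 to 129.6 TPM in subcutaneous cells (log2 fold change 0.066, adjusted p = 0.971). The glucose transporter Slc2a1 read 88.0, 127, 149, 124 and 177 TPM in pleural and 80.1, 75.9, 82.0, 180.2 and 92.7 TPM in subcutaneous cells and was not called (adjusted p = 0.611), with subcutaneous library 4 the highest of all.

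Of 17 glycolysis genes tested 4 rose, 1 fell and 12 were not called, and the median was 0.43. Aldoa, the aldolase of this pathway, read 1868, 2498, 2253, 2426 and 2298 TPM in pleural and 1604, 1692, 1388, 1974 and 1503 TPM in subcutaneous cells (log2 fold change 0.48, SE 0.10, adjusted p = 0.0191). Pleural library 1 lay below subcutaneous library 4, and the other pleural libraries lay above all subcutaneous ones. Pgk1, phosphoglycerate kinase, read 1079.5, 1182, 1418, 1329 and 1297 TPM in pleural and 814, 843, 755, 1162 and 899 TPM in subcutaneous cells (log2 fold change 0.50, SE 0.12, adjusted p = 0.0453). Here too subcutaneous library 4 reached into the pleural range. Gpi1 and Eno1, the isomerase and enolase of the pathway, also had overlapping groups and rose by 0.50 and 0.46 (adjusted p = 0.0442 and 0.0426). Gapdh, Ldha, Tpi1 and Pfkl had log2 fold changes of 0.43, 0.45, 0.38 and 0.57 and adjusted p of 0.0730, 0.0637, 0.0779 and 0.0546. Slc16a3, a lactate exporter, fell instead, at 0.571, 0.840, 0.931, 1.30 and 1.37 TPM in pleural and 9.91, 6.82, 1.72, 5.39 and 2.49 TPM in subcutaneous cells (log2 fold change -1.48, SE 0.29, adjusted p = 0.0130). It was highest in subcutaneous libraries 1 and 2. Neither direction kept a call in the list without those libraries (adjusted p = 0.107 for Aldoa and 0.0818 for Slc16a3, limma), though the median was 0.41. The count of genes that rose was 8 without pleural library 1 or subcutaneous library 4. It was 1 without pleural library 3, pleural library 5 or subcutaneous library 2, and 0 without any other one of the pleural and subcutaneous libraries. Without 1 peritoneal library it was 1 to 4 (1 without peritoneal library 4, 2 without peritoneal library 2 or 3), and median-of-ratios scaling gave 1.

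The 6 genes called higher in the hypoxia and glycolysis lists (Car9, Bnip3l, Aldoa, Pgk1, Gpi1 and Eno1) are known targets of hypoxia-inducible factors, and their promoters were searched for the core letters. Of the 6 genes 5 had promoters in the RefSeq table used here (build GRCm38.p6), with 9 start sites among them, of which those of Aldoa and of Eno1 lie partly within each other's windows. ACGTG or GCGTG on either strand was found in the 250 bases before the start at 7 of the 9 and for 4 of the 5 genes (not for Gpi1, nor at 1 start of Aldoa), and in 38.6% of all 32851 promoters of that length. That share counts starts and not genes, so it stands beside the 7 of 9 only. In the 7, 2 starts of Aldoa share the same match, and 2 starts of Eno1 share the same 2 matches. As these genes are known targets, matches were likely beforehand, and the cause of their increase was not tested. A palindrome CACGTG counts on both strands. The sequences of Car9 and Pgk1 are shown because Car9 had the largest increase of the set and Pgk1 has 1 listed start, with 2 matches. At Eno1, 2 of 3 starts also hold 2. Each runs 5′ to 3′ along its gene, capitals mark the matches (CACGT as printed is ACGTG on the other strand), and the final base is next to the start site. Car9 lies on chromosome 4 (chr4:43506776-43507025, plus strand), with its match beginning 18 bases before the start, and Pgk1 on chromosome X (chrX:106186850-106187099, plus strand).
Car9: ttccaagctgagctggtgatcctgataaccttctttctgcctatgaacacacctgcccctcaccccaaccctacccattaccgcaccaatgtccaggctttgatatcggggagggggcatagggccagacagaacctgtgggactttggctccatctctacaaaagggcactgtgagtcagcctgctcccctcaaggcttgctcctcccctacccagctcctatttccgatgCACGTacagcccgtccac
Pgk1: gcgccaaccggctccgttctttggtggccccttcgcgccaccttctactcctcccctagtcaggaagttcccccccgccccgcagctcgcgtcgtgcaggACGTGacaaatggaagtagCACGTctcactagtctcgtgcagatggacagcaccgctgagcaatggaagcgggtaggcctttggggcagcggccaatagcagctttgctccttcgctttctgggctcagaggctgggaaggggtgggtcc
A match is a stretch of letters and not a measured binding site.

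Gbe1, the glycogen branching enzyme, read 15.1, 15.7, 22.3, 20.2 and 25.8 TPM in pleural and 11.0, 10.9, 9.62, 10.5 and 12.1 TPM in subcutaneous cells (log2 fold change 0.79, SE 0.14, adjusted p = 0.00487). The groups did not overlap and the call held without subcutaneous libraries 1 and 2 (adjusted p = 0.0415). Pgm1, a phosphoglucomutase that links glycogen to glycolysis, was chosen after its values were seen and read 70.6 ± 15.2 TPM in pleural and 40.5 ± 6.23 TPM in subcutaneous cells (log2 fold change 0.77, SE 0.15, adjusted p = 0.0128, and adjusted p = 0.0754 without subcutaneous libraries 1 and 2).

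Inmt, Calcb, Adam22, Cda and Tinagl1 rose. Separate groups and a call without subcutaneous libraries 1 and 2 were conditions of their choice, as for Car9 and Gbe1 above. Of the 49 genes called higher, 10 stayed called without those libraries. The first, Inmt, a methyltransferase of small amines, read 10.0, 2.81, 11.9, 10.5 and 10.4 TPM in pleural and 0.627, 0.261, 0.781, 0.479 and 0.542 TPM in subcutaneous cells (log2 fold change 2.61, SE 0.29, adjusted p = 6.45e-05). It stayed under 1 TPM in every subcutaneous library, and pleural library 2 was the lowest pleural one. Calcb, which encodes a calcitonin gene-related peptide, read 4.09, 10.5, 12.7, 10.3 and 12.2 TPM in pleural and 1.29, 2.39, 2.09, 3.10 and 3.18 TPM in subcutaneous cells (log2 fold change 1.64, SE 0.25, adjusted p = 0.00154). Adam22, a membrane protein of the ADAM family, read 7.61, 11.5, 18.7, 12.5 and 16.1 TPM in pleural and 4.24, 3.24, 4.41, 3.88 and 2.68 TPM in subcutaneous cells (log2 fold change 1.57, SE 0.23, adjusted p = 0.000928). Pleural library 1 was the lowest pleural library for Calcb and Adam22 and still exceeded all subcutaneous ones. Cda, the cytidine deaminase of pyrimidine salvage, was at 12.9 to 25.7 TPM in pleural and 6.34 to 9.82 TPM in subcutaneous cells (log2 fold change 1.14, SE 0.18, adjusted p = 0.00232). Tinagl1, a secreted basement membrane protein, was at 30.1 to 38.9 TPM in pleural and 20.0 to 26.4 TPM in subcutaneous cells (log2 fold change 0.58, SE 0.089, adjusted p = 0.00142).

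**Figure D4:**
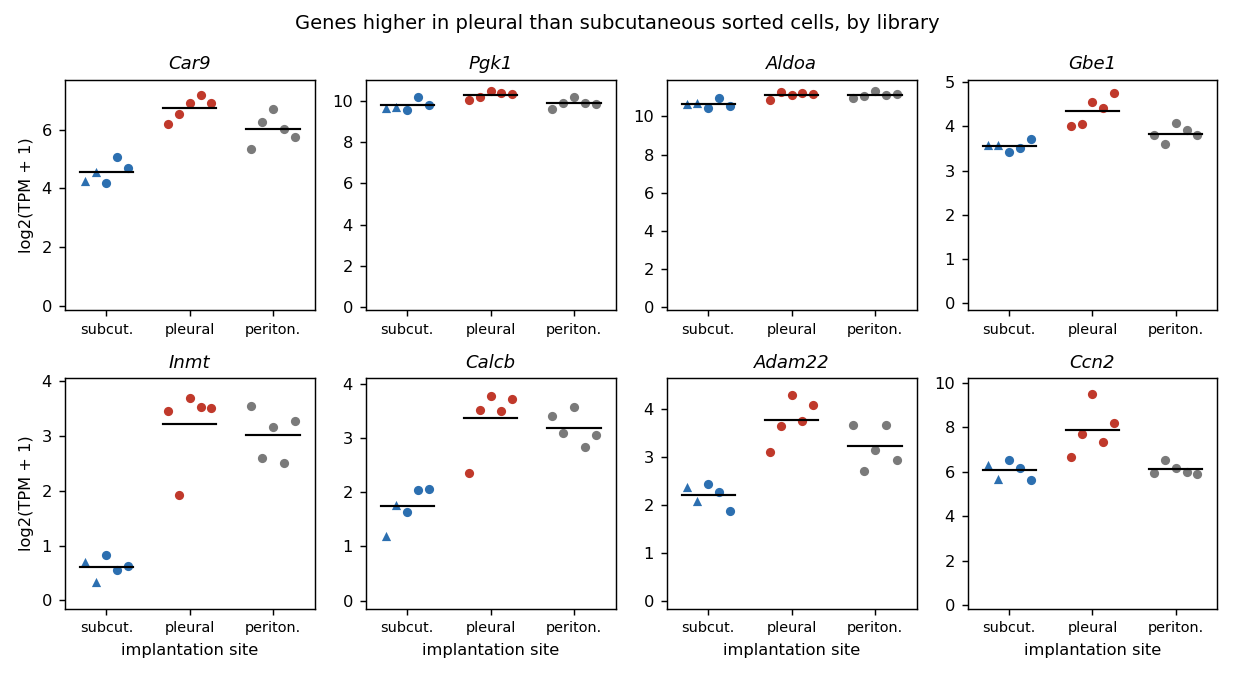
Level of 8 genes that rose in pleural cells, as log2(TPM + 1), in each sorted library by implantation site; bars are means of 5 libraries and triangles are subcutaneous libraries 1 and 2. The pleural and subcutaneous points are separate for Car9, Gbe1, Inmt, Calcb, Adam22 and Ccn2 and overlap for Pgk1 and Aldoa, and Ccn2 is spread from 99.4 to 736 TPM among pleural libraries.

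Ccn2, Fhl2 and Fstl3 were chosen after their values were seen because they were also higher in pleural than in peritoneal cells. The gene Ccn2, of the matricellular connective tissue growth factor and a target of YAP, read 99.4, 207, 736, 161 and 289 TPM in pleural and 77.6, 50.9, 92.3, 71.7 and 48.1 TPM in subcutaneous cells (log2 fold change 1.81, SE 0.38, adjusted p = 0.0204). Pleural library 3 was far above the others, and all 5 exceeded every subcutaneous library. The call was lost without subcutaneous libraries 1 and 2 (adjusted p = 0.142), and Ccn2 was the only one of 18 YAP targets tested that rose, beside Igfbp3, which fell (median 0.032). The YAP target count was 2 without subcutaneous library 3, and 0 without pleural library 5 or subcutaneous library 2 or 5. Against peritoneal cells Ccn2 was higher by 1.76 (adjusted p = 0.0128). Fhl2, a LIM domain protein, and Fstl3, a secreted activin inhibitor, rose by 0.54 and 0.71 against subcutaneous cells (adjusted p = 0.0238 and 0.00487), and by 0.68 and 0.56 against peritoneal cells (adjusted p = 0.00475 and 0.0133). Without subcutaneous libraries 1 and 2 their adjusted p was 0.121 and 0.0588.

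Genes that respond to glucocorticoids gave 1 call. Of 12 tested, 1 rose (Mt2, a metallothionein) and 0 fell, and the median was 0.66. Mt2 read 836, 1431, 1888, 1884 and 1596 TPM in pleural and 581, 594, 583, 1079.6 and 711 TPM in subcutaneous cells (log2 fold change 1.09, SE 0.26, adjusted p = 0.0426, and adjusted p = 0.314 without subcutaneous libraries 1 and 2). Pleural library 1 lay below subcutaneous library 4. Per1, a clock gene, and Fkbp5, a co-chaperone of the receptor, had log2 fold changes of 1.34 and 0.75 and missed the threshold (adjusted p = 0.0678 and 0.0835). The count was 5 without pleural library 1, and 0 without any one of pleural libraries 2 to 5, subcutaneous libraries 1, 2, 3 and 5 and peritoneal libraries 1 and 2.

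Haemoglobin transcripts also rose. Hbb-bs, of adult beta globin, read 27.0, 69.7, 20.3, 19.2 and 207 TPM in pleural and 2.75, 5.24, 2.82, 6.49 and 2.88 TPM in subcutaneous cells (log2 fold change 3.21, SE 0.64, adjusted p = 0.0132). Pleural library 5, which held the lung epithelial transcripts, was the highest, and the other 4 still exceeded all subcutaneous libraries. Hba-a1, of alpha globin, had a log2 fold change of 2.80 (adjusted p = 0.0305), and both calls were lost without subcutaneous libraries 1 and 2 (adjusted p = 0.0935 and 0.169). Of the 6 erythroid and platelet markers tested 2 rose and 0 fell. That count was 4 without peritoneal library 2, and 1 without pleural library 2 or 5 or subcutaneous library 1, 3 or 5. The list summed to 49.9 to 488 TPM in pleural and 10.6 to 25.2 TPM in subcutaneous libraries. Of the 49 genes called higher, 13 had predicted or clone names and are not described. Among the rest, Slc38a4, an amino acid transporter, rose from 0.558 ± 0.105 to 1.42 ± 0.242 TPM (log2 fold change 0.63, SE 0.12, adjusted p = 0.00747), and it was chosen after its values were seen.

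The tumour suppressor, mitosis and DNA replication lists gave no call. The mesothelioma tumour suppressors Bap1, Nf2 and Trp53 were at 25.6 ± 2.45, 43.3 ± 4.48 and 119 ± 6.87 TPM (SD, n = 5) in pleural and 26.2 ± 2.60, 42.5 ± 2.95 and 115 ± 5.74 TPM in subcutaneous cells, with log2 fold changes of -0.033 (SE 0.12), 0.023 (SE 0.15) and 0.045 (SE 0.071). Of the 9 genes tested in that list 0 were called by limma, and 0 had an unadjusted p below 0.05. Among 24 mitosis genes 0 were called, 9 had an unadjusted p below 0.05 and 2 had a positive log2 fold change (median -0.20). Over all genes tested, 1365 of 12357 had an unadjusted p below 0.05. Mki67, the proliferation marker, was at 55.3 to 64.5 TPM in pleural and 46.3 to 74.7 TPM in subcutaneous cells. The 25 DNA replication genes also gave 0 calls, with 0 at an unadjusted p below 0.05 (median 0.087). Myc, Plk2 and Bcl6 had log2 fold changes of 0.06 (SE 0.29), 0.10 (SE 0.27) and 0.007 (SE 0.19) and adjusted p of 0.983, 0.966 and 0.998. Msln, the surface antigen mesothelin, was at 159, 286, 316, 206 and 278 TPM in pleural and 149.9, 189, 157, 178 and 158 TPM in subcutaneous cells and missed the threshold (log2 fold change 0.54, SE 0.16, adjusted p = 0.128). It was called without pleural library 1, the lowest pleural library (log2 fold change 0.69, adjusted p = 0.00931).

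Interferon-induced genes gave no call either. Of 27 type I interferon genes tested 0 were called by limma and 17 had an unadjusted p below 0.05, beside 1365 of all 12357 genes. Only 1 of the 27 had a positive log2 fold change, and the median was -0.70 (-0.46 without subcutaneous libraries 1 and 2). The list summed to 1272, 404, 488, 807 and 417 TPM in pleural and 1386, 939, 884, 821 and 874 TPM in subcutaneous libraries. Pleural library 1 lay within the subcutaneous range, pleural library 4 just below it and the other 3 well below. The 21 interferon gamma genes tested gave 0 calls, 6 at an unadjusted p below 0.05 and 1 positive log2 fold change (median -1.03). Cd274, which encodes the checkpoint ligand PD-L1, ranked the pleural libraries in the same order, at 14.7, 1.77, 3.67, 5.89 and 2.30 TPM in pleural and 17.8, 9.48, 7.72, 8.39 and 11.8 TPM in subcutaneous cells (log2 fold change -1.10, SE 0.42, adjusted p = 0.304). Without pleural library 1, the highest pleural one, it was called (log2 fold change -1.48, adjusted p = 0.0388). B2m, the light chain of MHC class I, was at 1413 to 2214 TPM in pleural and 1489 to 2284 TPM in subcutaneous cells (log2 fold change 0.0025, adjusted p = 0.999). Among 26 immediate early genes 0 were called with all libraries and 3 had an unadjusted p below 0.05. Without subcutaneous libraries 1 and 2 the transcription factor genes Fos, Fosb and Klf4, named after their values were seen, were called lower, with log2 fold changes of -0.90, -1.37 and -1.56 (adjusted p = 0.0393, 0.0208 and 0.0294). The summed level of that list was lowest in subcutaneous library 2 (4222 TPM, beside 7797 to 11872 TPM in the other 9 libraries).

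Peritoneal sorted cells show where the pleural values stand among the 3 sites. Pleural and peritoneal cells differed at 1231 genes (9.96%), 550 higher (4.45%) and 681 lower (5.51%) in pleural cells. For the 12 named genes with the largest decreases, from Postn to Mmp3, the pleural minus peritoneal difference lay between -0.53 (Ccl11) and 0.60 (Timp3) on the log2 scale, with adjusted p from 0.154 to 0.906. Postn, for example, was at 1.000, 0.398, 3.08, 0.843 and 0.183 TPM in peritoneal libraries 1 to 5. Car9 read 39.6, 75.9, 103, 64.3 and 52.8 TPM in peritoneal cells, between the other sites, and its pleural minus peritoneal difference missed the threshold (log2 difference 0.73, adjusted p = 0.0656). Inmt was at 7.40 ± 2.54 TPM and Calcb at 8.28 ± 1.93 TPM in peritoneal cells (pleural minus peritoneal adjusted p = 0.671 and 0.663). Gbe1 was higher in pleural than peritoneal cells (log2 difference 0.52, adjusted p = 0.0297). Tinagl1 was highest in peritoneal cells, at 51.3 ± 1.62 TPM, and lower in pleural ones by -0.58 (adjusted p = 0.00323). Plk2, Myc and Bcl6, which did not differ detectably between pleural and subcutaneous cells, were higher in pleural than peritoneal cells by 1.26, 1.06 and 0.76 (adjusted p = 0.0117, 0.0325 and 0.0246).

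Whole tumours of the pleural and subcutaneous sites gave values beside those of the sorted cells, although the tables were normalized separately and the labels give the same mouse names to most of both, so they are not independent. Between whole tumours 1927 of 15054 genes were called (12.8%), 1415 higher (9.40%) and 512 lower (3.40%) in pleural tumours, a count that was 785 without subcutaneous tumour 2, 1045 without pleural tumour 2 and 1262 without pleural tumour 4. Of the 49 genes that rose in pleural sorted cells 48 were tested in whole tumours, and 35 (72.9%) were called higher there and 0 lower. Of the 154 that fell 148 were tested, and 49 (33.1%) were called lower and 0 higher. Read from the other side, 14.1% of the 348 genes that fell in pleural whole tumours and were tested in sorted cells were called lower there, and 2.76% of the 1269 that rose were called higher.

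Genes that fell in pleural sorted cells were in part lower and in part not called in whole tumours. Crabp1 was at 0.330 ± 0.225 TPM in pleural (n = 6) and 33.5 ± 16.9 TPM in subcutaneous whole tumours (n = 5, log2 fold change -4.57, adjusted p = 1.74e-08). Lrrc15 was at 0.0683 ± 0.0386 and 6.55 ± 0.405 TPM (log2 fold change -2.82, adjusted p = 9.06e-13). Both genes were low in pleural tissue as in pleural sorted cells. Lox and Loxl2, in contrast, were at 32.1 ± 25.3 and 9.67 ± 8.30 TPM in pleural whole tumours and were not called there (adjusted p = 0.272 and 0.0732). In subcutaneous whole tumours they were at 41.2 ± 10.2 and 17.7 ± 5.45 TPM. Their printed levels were above those of sorted cells at both sites, in tables normalized separately. Col15a1 was at 56.3 ± 25.8 TPM in pleural and 95.2 ± 29.2 TPM in subcutaneous whole tumours (adjusted p = 0.0677). Mmp3 was at 24.0 ± 33.2 and 39.4 ± 7.09 TPM (adjusted p = 0.0757), where pleural tumour 3 read 91.3 TPM and the other 5 pleural tumours 6.33 to 15.4 TPM, below every subcutaneous tumour. Pleural tumour 3 was also the highest pleural one for Lox (78.6 TPM), Loxl2 (25.6 TPM) and Col15a1 (96.5 TPM). Slc16a3, lower in pleural sorted cells, was at 21.5 ± 7.74 TPM in pleural and 16.1 ± 5.32 TPM in subcutaneous whole tumours (log2 fold change 0.38, adjusted p = 0.300). Among the genes that rose in sorted cells, Adam22 was also higher in pleural whole tumours (log2 fold change 0.99, adjusted p = 0.000255), as was Gbe1 (0.68, adjusted p = 0.00912). Calcb and Cda were not called there (adjusted p = 0.139 and 0.0640). The glycolysis list, with 4 genes higher in sorted cells, had 13 of 17 higher in whole tumours, and its median was 0.51 there beside 0.43 in sorted cells.

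**Figure D5:**
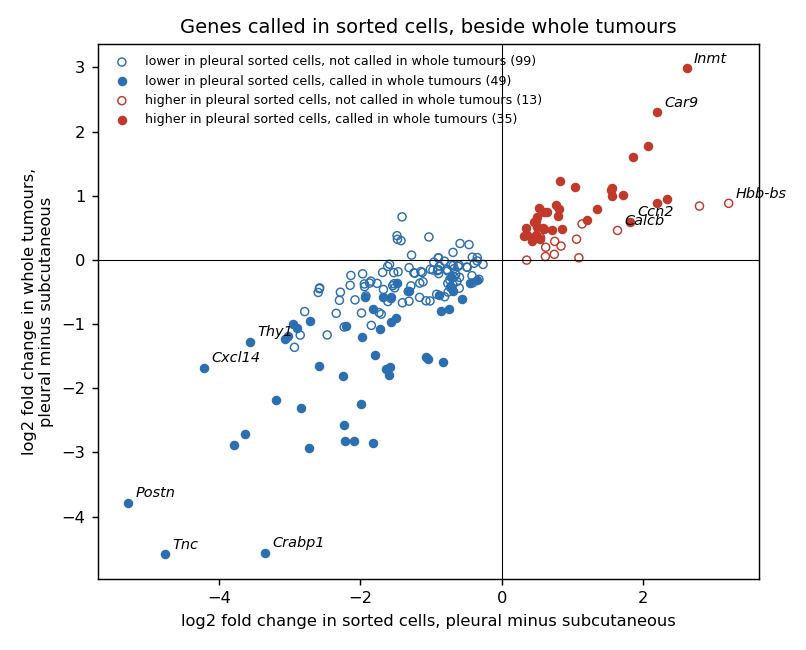
Genes called in sorted cells and tested in whole tumours, with the pleural minus subcutaneous log2 fold change in sorted cells on the x axis and in whole tumours on the y axis; filled points are also called in whole tumours. Of the lower genes 49 of 148 are filled and of the higher genes 35 of 48, and Postn, Tnc and Crabp1 lie lowest while Inmt and Car9 lie highest on the y axis.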

How the data were processed

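RNA was sequenced from sorted cells (5 libraries each from subcutaneous, pleural and peritoneal tumours) and from whole tumours, and the authors deposited TPM per gene symbol, made with kallisto on build GRCm39 per the submitters' processing notes. Version and annotation were not given in the sources used here. TPM keeps no read depth, so depth and counting precision are unknown. The deposited values covered 12461 entries in sorted cells and 54456 in whole tumours, so a gene without a row in the sorted table was not analysed here in sorted cells. Groups were taken from the labels, which name 1 mouse per sorted library and give most of these mice a whole tumour library too.

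From the deposited TPM, 17 entries whose symbols read as calendar dates were left out and log2(TPM + 1) was tested where TPM reached 1 in at least 5 sorted libraries (12357 genes). The test was limma 3.58.1 in R 4.3.3, with 1 fit over the 3 sites, trended empirical Bayes and Benjamini-Hochberg adjustment over all genes tested. All adjusted p-values come from it, a gene was called at an adjusted p below 0.05, and whole tumours were fitted alike in their own table. Tested on simulated data for the pleural against subcutaneous comparison (12357 genes), it recovered 84.5% of 200 genes changed by a log2 of 1 and 97.5% of 200 changed by a log2 of 2, with 5 and 14 false calls, and called 0 with no change.

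Named genes were up to 12 in each direction with the largest change among called genes with separate pleural and subcutaneous values, one site averaging 5 TPM or more, and a call that held without subcutaneous libraries 1 and 2, predicted and clone names apart. To these were added the 2 lowest p-values of each list with 3 or more calls, and a set of genes fixed by name. Other genes are examples from the lists, chosen after their values were seen. The comparison, the lists and this rule were chosen with earlier results of these data known. Alternatives covered the pseudocount, the filter, the scaling, the fit, the threshold, a replicate block and libraries left out.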

Additional observations from a re-analysis of the deposited data

Results flagged for a closer look

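Single libraries stood far from the other 4 of their group by Dixon's test at 5 samples, which chance alone flags in about 1 of 20 groups. The 74 gene and site groups of the named genes were examined on log2(TPM + 1). On the TPM values printed here the set of flags would differ. Subcutaneous library 1, one of the pair with leukocyte RNA, stood above the rest for Cxcl14 (115 TPM, others 46.5 to 60.1), Cpxm1 (48.1 TPM, others 16.5 to 21.6), Mmp2 (48.4 TPM, others 21.2 to 25.1), Spon1 (25.8 TPM, others 9.15 to 10.9) and Mmp3 (32.2 TPM, others 7.35 to 10.5). All 5 of these genes stayed called without that library. Pleural library 2 had a low Inmt (2.81 TPM, others 10.0 to 11.9), and pleural library 1 a low Calcb (4.09 TPM, others 10.3 to 12.7). Bap1 was low in pleural library 4 (21.4 TPM, others 25.8 to 27.7). The share of mitochondrial genome transcripts was high in subcutaneous library 5 (6.63% of TPM, others 5.60 to 5.88%).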

How the results depend on the processing

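Of 37 named genes, 33 kept their side of the threshold under every alternative that gave a value. This is partly a matter of choice. The 12 lower and 7 higher genes named for their large changes had to stay called without subcutaneous replicates 1 and 2. Of all 203 called genes, 98 stayed called in that setting. Several named genes that were not called changed sign, such as Ptprc (log2 fold change -1.28 to 0.198) and Myc (-0.290 to 0.261). No called gene among the 37 changed direction. Aldoa lost its call in 8 of 27 alternatives and Slc16a3 in 3 of 26, while Msln gained one with limma arrayWeights and without pleural replicate 1, and Cd274 without pleural replicate 1. The sorted count of 203 (49 higher, 154 lower, 118 at 2-fold or more) was 107 (31 higher, 76 lower, 60 at 2-fold or more) with a filter of 5 TPM, 406 (135 higher, 271 lower) with arrayWeights, and 106 at an adjusted p below 0.01 (16 higher, 90 lower). It was 106 (11 higher, 95 lower) without subcutaneous replicates 1 and 2, and quantile normalization gave 106 higher. Leaving out 1 library gave 142 to 269 called, 26 to 87 higher, 116 to 182 lower and 99 to 141 at 2-fold or more. Whole tumours went from 1927 called to 802 with no filter and 401 at an adjusted p below 0.01, and to 785 to 2237 with 1 library left out. The causes were not tested. The difference in summed leukocyte markers was -279 to -126 TPM with 1 library left out, and its exact permutation p was 0.0238 without subcutaneous replicate 3 or 5.

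With the replicate number as a block, sorted cells gave 187 calls (43 higher, 144 lower) and whole tumours 849. Numbers did not pair the sorted samples, since deviations of same-numbered pleural and subcutaneous libraries correlated across genes by 0.011, 0.0019, 0.10, 0.0999 and -0.21, and 1 of 5 pleural libraries correlated best with its own number. Read depth is unknown, which limits what can be said of genes at low TPM.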
